A study of Homo sapiens with 25 samples.

Results

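Chromatin at 10 target genes of the tumour suppressor p53 was examined in MDA-MB-231, an established line of human triple-negative breast cancer. The genes were taken by symbol: CDKN1A, GADD45A, FAS, BBC3, BAX, MDM2, SESN1, TP53I3, ZMAT3 and GDF15. All 10 were found among 19970 protein-coding genes of GENCODE release 44 on chromosomes 1 to 22 and X. For each gene, peaks of H3K4me3 and H3K27ac at the promoter and in the gene body were read from 4 peak lists. The position of its start was read from 5 lists of broad domains. All coordinates are on hg38.

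The transcription factor p53 is stabilised by DNA damage and other stresses and binds paired decamers of DNA to switch on genes of cell cycle arrest, apoptosis, repair and metabolism. MDM2, itself a target, is the ubiquitin ligase that limits p53. Neither p53 nor its activity in this line was measured here, so the marks described below are not a readout of p53 function. PML, the scaffold of PML nuclear bodies, recruits p53, MDM2 and enzymes that modify p53. H3K4me3 marks active or poised promoters and H3K27ac marks active promoters and enhancers, whereas H3K9me3 marks constitutive heterochromatin and lamin B1 (LMNB1) lines the nuclear envelope.

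All libraries came from the same line, fixed with disuccinimidyl glutarate and formaldehyde. Control cells were compared with cells in which PML was silenced by a lentiviral short hairpin RNA. The labels state neither the hairpin, nor what the controls received, nor whether the silenced cells were a clone or a pool. Of 25 libraries, 3 were of PML in the line with no condition named, and each condition had 2 of H3K4me3, H3K27ac, H3K27me3, H3K9me3 and LMNB1 and 1 input. The lists gave 1 set of regions per target and condition and no value per replicate, so no difference between conditions has a replicate check and no test was made. PML was not profiled after knockdown in the lists used here, so its domains have no knockdown counterpart, and the knockdown itself was not measured. The conditions of the peak lists are marked ct and pml. These marks were taken to mean control and knockdown, which is an assumption.

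Fold enrichment is the authors' value for a peak, its signal over background, and ranks peaks within 1 list only. Median fold over marked promoters was 18.4 for H3K4me3 and 8.26 for H3K27ac in the control lists. In the knockdown lists it was 35.3 and 11.2. A difference of scale and a real rise of the marks cannot be told apart from these lists. A fold of 1 condition is therefore not to be read directly against that of the other. Read depth is unknown. The lowest -log10 q was about 1.3 in each list, so a peak not listed was under the threshold of calling and not shown to be absent. In bulk chromatin, fewer cells with a mark and less of it per cell cannot be told apart. Promoters of the mesenchymal and basal markers VIM, CD44, AXL and CAV1 held peaks in all 4 peak lists, as did 49.1% of all genes. Of the luminal markers, the promoter of KRT8 held peaks in all 4, that of ESR1 only of H3K4me3, that of PGR only of H3K4me3 in the knockdown list, and that of GATA3 none. Outside the promoter, the bodies of all 4 genes of each marker set held H3K4me3 peaks in both lists (56.9% and 63.1% of all genes). Those of ESR1, GATA3, KRT8 and all 4 mesenchymal and basal genes held H3K27ac peaks in both lists (47.5% and 50.8%).

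Because p53 binds DNA through a known motif, its matches near the starts are shown before the peaks. The motif searched was the p53 consensus decamer, as 2 adjacent copies with no spacer. At most 2 mismatches in 20 bases were allowed, and none at the C and G of either core. The decamer is its own reverse complement, so a search of 1 strand covers both. Within 3 kb of the canonical start, 7 of the 10 genes held such a match, and 4.65% of all protein-coding genes did in windows of the same length. The genes are textbook targets, in part known through such sites, so this count is a description. The 7 matches follow on the strand of the gene, 5′ to 3′, with the 4 core bases of each decamer in capitals.
ZMAT3: aaaCAAGtccagaCATGcct
GADD45A: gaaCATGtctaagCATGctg
CDKN1A: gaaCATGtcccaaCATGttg
FAS: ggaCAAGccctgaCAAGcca
MDM2: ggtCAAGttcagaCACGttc
BAX: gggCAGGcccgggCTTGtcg
GDF15: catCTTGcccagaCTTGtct
ZMAT3 matched at every position and GADD45A had 1 mismatch, while the other five had 2. Allowing 3 mismatches, 9 genes and 25.5% of all genes held a match, BBC3 and TP53I3 being the added ones. The BBC3 match, at -131 bp from the start, is shown with that of SESN1, which lay at an internal start in the RefSeq promoter table.
BBC3: ctgCAAGtcctgaCTTGtcc
SESN1: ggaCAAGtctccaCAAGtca

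A match is a description of letters and not a bound site, since p53 was not profiled. Of the 7 matches with at most 2 mismatches, 4 lay under an H3K4me3 peak of at least 1 list (FAS, MDM2, BAX and GADD45A) and 3 also under H3K27ac peaks (MDM2, BAX and GADD45A). Those of CDKN1A, GDF15 and ZMAT3 lay under none. The GADD45A and ZMAT3 matches are also shown with 60 bases on each side, the match in capitals, because they were the closest to the consensus and differed in cover: the GADD45A match lay under peaks of all 4 lists and the ZMAT3 match under no peak. RefSeq promoters (GRCh38.p14, 250 bases before to 50 after a start) matched 9 of the 10 genes by symbol, all but GADD45A. A match with at most 2 mismatches was found in promoters of MDM2 and FAS there, and in 0.285% of all 35116 promoters of the table.
GADD45A: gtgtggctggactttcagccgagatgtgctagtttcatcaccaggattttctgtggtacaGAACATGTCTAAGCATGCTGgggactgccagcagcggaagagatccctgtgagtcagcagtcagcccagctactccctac
ZMAT3: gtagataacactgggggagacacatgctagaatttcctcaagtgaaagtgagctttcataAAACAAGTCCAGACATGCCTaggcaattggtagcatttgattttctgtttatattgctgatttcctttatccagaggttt
The GADD45A stretch is chr1:67686715-67686854 on the plus strand, in intron 3. The ZMAT3 stretch is chr3:179070128-179070267 on the minus strand, in intron 1, and its match stopped 71 bp short of the knockdown H3K4me3 peak and 312 bp short of the control one.

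**Figure D1:**
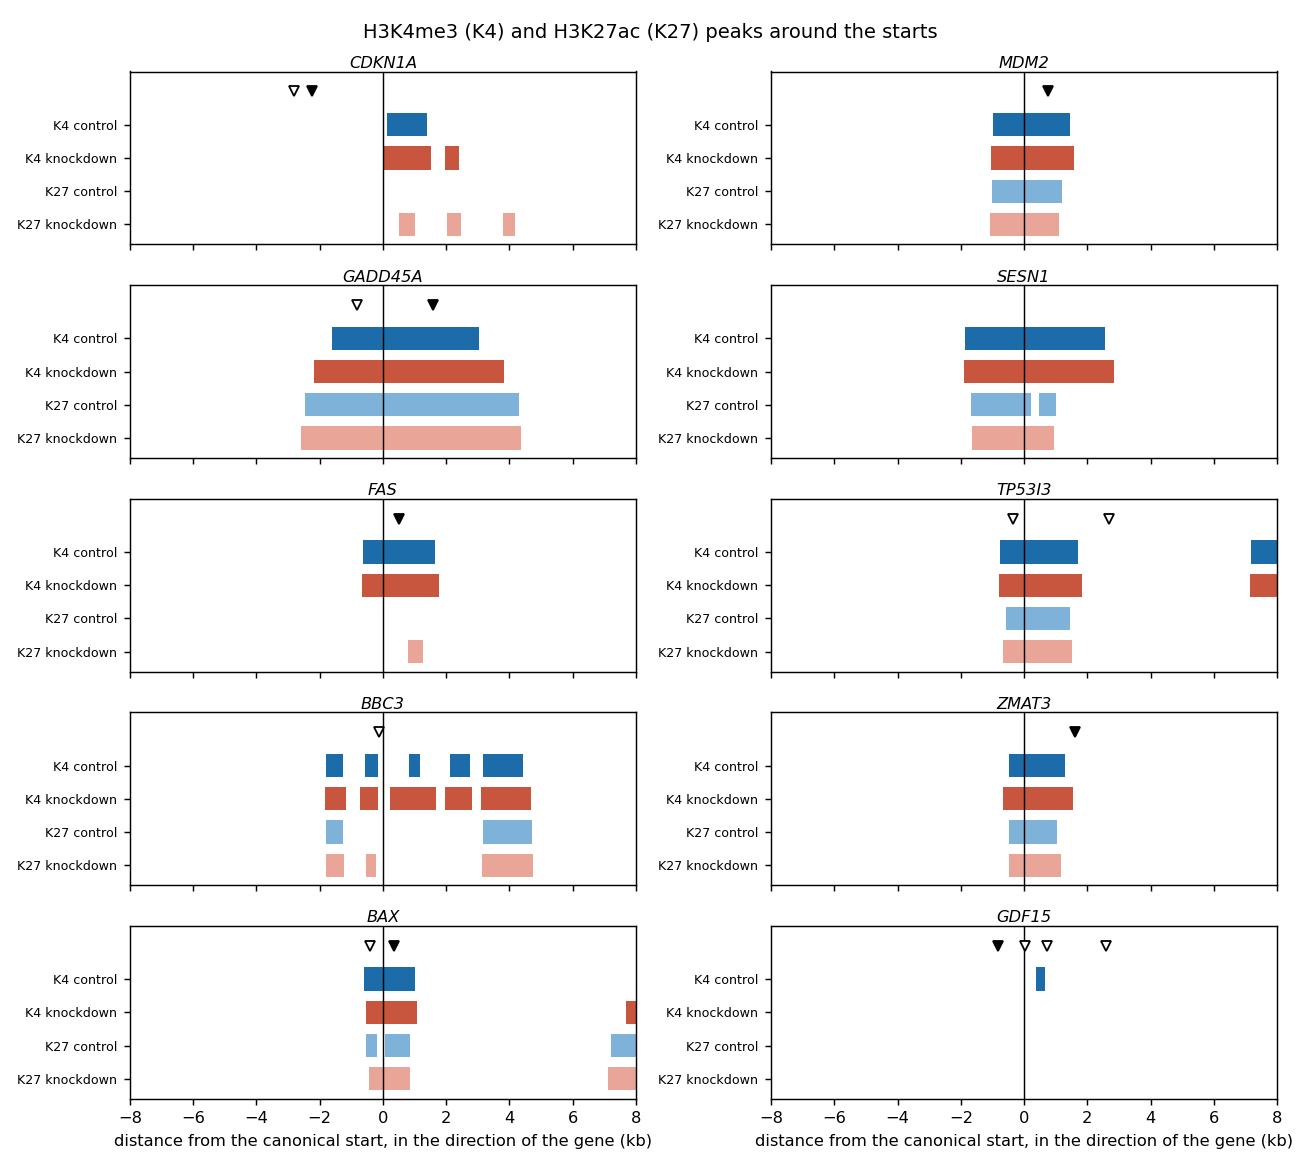
Peaks within 8 kb of the canonical start of each gene, drawn in the direction of the gene, with distance from the start in kb on the horizontal axis and 1 row per list. Bars are peaks, cut at the edges of the window, the vertical line is the start, filled triangles are p53 decamer pairs within 3 kb with at most 2 mismatches and open triangles those with 3; GADD45A has 1 long peak per list, BBC3 is broken into several and GDF15 has a single short one.

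Nearly all of the 10 genes carried H3K4me3 at the promoter, taken as the canonical start with 1 kb on either side. H3K27ac was called at fewer of them in control, near the share of all genes. An H3K4me3 promoter peak was present at 10 of 10 genes in control and at 9 of 10 in knockdown, against 61.8% and 63.7% of all protein-coding genes. An H3K27ac promoter peak was present at 6 of 10 in control and 9 of 10 in knockdown, against 50.8% and 53.7%. With any annotated start the H3K27ac counts were 8 and 10, BBC3 and GDF15 being the genes added in control. The share of all genes was not computed for that setting. MDM2, BAX, GADD45A, SESN1, ZMAT3 and TP53I3 held promoter peaks in all 4 lists, as did 49.1% of all genes. CDKN1A, FAS and BBC3 held H3K27ac at the promoter in the knockdown list only, a class of 3.24% of all genes. GDF15 held H3K4me3 in the control list only, a class of 0.0951% (19 genes). No member was marked by H3K4me3 in the knockdown list only (1.79% of all genes) or by H3K27ac in the control list only (0.666%).

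The peaks present in 1 list only were weak ones. Among the 647 promoters with H3K27ac in the knockdown list only, the median -log10 q was 6.23, and BBC3 had 5.57, FAS 3.57 and CDKN1A 1.31. These values stood at percentiles 44.5, 20.4 and 0.464 of that class. With peaks of -log10 q of at least 5 only, or with a promoter window of 500 bp each way, BBC3 alone of the 3 remained. With a window of 2500 bp each way, or with any annotated start, BBC3 was the gene lost and CDKN1A and FAS remained, so none of the 3 was called under every alternative. GDF15 had a -log10 q of 4.67 and was no longer called at a minimum of 5. Among members marked in a list, the highest promoter fold ran from 2.33 to 41.8 for H3K4me3 in control and from 5.44 to 79.1 in knockdown. For H3K27ac it ran from 5.85 to 24.1 in control and from 1.69 to 23.2 in knockdown. CDKN1A was the lowest of the marked members in each list where it had a peak, and SESN1 the highest for H3K4me3 in both lists.

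**Figure D2:**
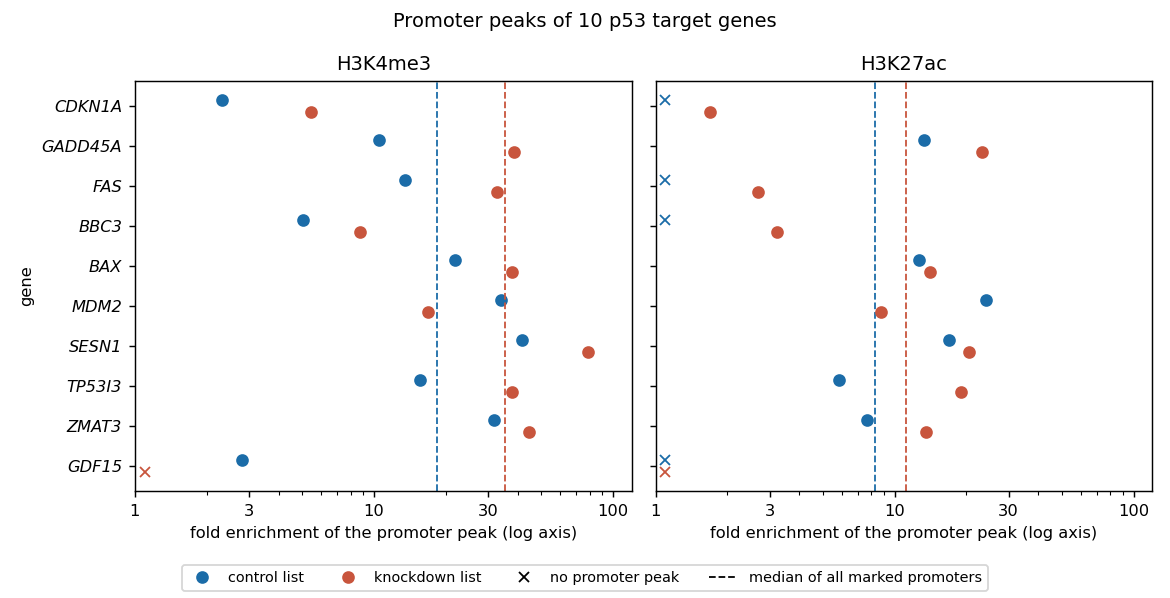
Highest fold enrichment of a promoter peak (log axis) at each gene for H3K4me3 and H3K27ac, in the control and the knockdown lists, with crosses where the list had no promoter peak and dashed lines at the median of all marked promoters of each list. MDM2 lies above the control median for both marks, at 33.96 and 24.11, and below the knockdown median for both, at 16.84 and 8.816.

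CDKN1A encodes p21, the inhibitor of cyclin-dependent kinases that carries out p53-driven arrest, and its promoter peaks were the lowest of the marked members by fold. The gene (ENSG00000124762.14) lies on chromosome 6 from 36676460 to 36687337, on the plus strand. Its H3K4me3 peak had a fold of 2.33 in control and 5.44 in knockdown. By -log10 q it was not the weakest, with 21.9 in control, against 4.67 at GDF15. In knockdown it had 87.7, against 47.8 for the highest promoter peak of BBC3. The background signal at this locus was not tested. Among the 12328 promoters marked by H3K4me3 in both lists these folds stood at percentiles 0.389 and 1.74. The control peak ran from 36678855 to 36680100, in intron 1, and began 141 bp after the canonical start at 36678714. None of the 8 annotated starts lay in it. A canonical start outside every H3K4me3 peak was found at 28.6% of the genes with a control promoter peak. The knockdown peak began 35 bp after the start and was 1483 bp long, against 1246 bp in control.

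No H3K27ac peak of the control list lay within 50 kb of the CDKN1A start, and the nearest was 82957 bp away. The share of genes with no such peak within 50 kb was 18.0%, and 4.86% among those with a control H3K4me3 promoter peak. The knockdown list held 3 H3K27ac peaks in the gene, all in intron 1, at 0.513, 2.01 and 4.01 kb after the start. Their folds were 1.69, 1.62 and 3.001, and their -log10 q 1.31, 1.44 and 5.94. The strongest of the 3 stood at percentile 6.66 of all H3K27ac peaks of that list, so each was near its lower end. The knockdown list also held a short H3K4me3 peak 2.03 kb after the start (fold 2.13). The decamer pair of CDKN1A (chr6:36676449-36676468) lay at -2255 bp from the canonical start, overlapped an annotated untranslated exon, and was 2386 bp from the control H3K4me3 peak. DINOL, a long non-coding RNA gene on the opposite strand, starts at -155 bp from CDKN1A and shares its promoter window.

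GADD45A encodes a stress sensor that halts the cell cycle and assists DNA repair, and it carried the broadest marks of the 10. The gene (ENSG00000116717.13) lies on chromosome 1 from 67685201 to 67688334, on the plus strand. A single H3K4me3 peak covered 4618 bp in control and 5982 bp in knockdown, at percentiles 97.5 and 98.3 of peak length over marked promoters. H3K27ac covered 6767 and 6932 bp, at percentiles 99.4 and 99.1. All 5 annotated starts lay under peaks of all 4 lists. For H3K4me3, height did not follow breadth. The control fold was 10.6, at percentile 22.3 of the promoters marked in both lists, and the knockdown fold was 38.5, at percentile 54.1. For H3K27ac, height ranked higher, with folds of 13.3 and 23.2 at percentiles 71.6 and 80. The H3K27ac summit lay in intron 3, 1425 bp after the start in control and 1433 bp in knockdown. The decamer pair (chr1:67686775-67686794) lay in the same intron, 1584 bp after the start.

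FAS, BBC3 and BAX belong to the apoptotic arm of the response, and only BAX held H3K27ac at the promoter in both lists. FAS encodes a death receptor of the cell surface (ENSG00000026103.25, chromosome 10, 88953813 to 89029605, plus strand). Its H3K4me3 promoter peak had a fold of 13.5 in control and 32.8 in knockdown, at percentiles 32.7 and 44.3 of promoters marked in both lists. Each peak summit lay in intron 1, 818 and 813 bp after the start. Of 41 annotated FAS starts, 33 lay under the peak in each list. An annotated start of ACTA2, which encodes smooth muscle actin, lay under it too, so the peak may belong to either gene. H3K27ac was absent from the promoter in the control list. The knockdown list had a 471 bp peak of fold 2.69 at 801 bp after the start, at percentile 1.72 of marked promoters.

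A further peak inside FAS was much stronger than that. At -15.5 kb from the canonical start (-15.6 kb for H3K4me3 in control), but inside the annotated gene, H3K4me3 had folds of 26.9 and 37.3 and H3K27ac folds of 10.2 and 9.93, in control and knockdown. The H3K27ac peak ran from 88974678 to 88975802 in control and stood at percentile 77.6 of all peaks of that list, against 67.4 in knockdown. No annotated start lay under it. The annotated span of ACTA2, on the opposite strand, also covers this place, so the peak cannot be assigned to FAS alone. The decamer pair (chr10:88991309-88991328) lay 521 bp after the start, in intron 1 of the canonical transcript, and overlapped an annotated untranslated exon. It was under the H3K4me3 peak in both lists and 253 bp from the knockdown H3K27ac peak.

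BBC3 encodes PUMA, a BH3-only protein that triggers the mitochondrial death pathway, and its marks were broken into short peaks. The gene (ENSG00000105327.18) lies on chromosome 19 from 47220822 to 47232766, on the minus strand. Both H3K4me3 lists held 5 peaks over it, and the 2 at the promoter had a highest fold of 5.04 in control and 8.77 in knockdown, at percentiles 5.52 and 5.26 of promoters marked in both lists. The strongest H3K4me3 peak lay 3.37 kb after the start, in intron 2, with folds of 6.88 and 13.7. It held another annotated start of BBC3 and those of the microRNA genes MIR3190 and MIR3191. H3K27ac was strongest there too, with folds of 8.86 in control and 14.8 in knockdown. Counted over any annotated start, BBC3 was marked by H3K27ac in both lists. The knockdown H3K27ac peak at the canonical promoter was 311 bp long, had a fold of 3.21 and its summit at -408 bp. The decamer pair with 3 mismatches (chr19:47231320-47231339) lay between peaks, 19 bp from the control and 1 bp from the knockdown H3K4me3 peak.

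BAX encodes the protein that permeabilises the outer mitochondrial membrane (ENSG00000087088.21, chromosome 19, 48954815 to 48961798, plus strand). Its H3K4me3 fold was 21.8 in control and 37.8 in knockdown, at percentiles 61.4 and 52.9. Its H3K27ac fold was 12.7 and 14.1, at percentiles 69.7 and 57.7. BAX thus stood above the median of these promoters in every list. All 6 annotated starts lay under the H3K4me3 peak of each list. In control, H3K27ac was split into peaks of 333 and 780 bp on either side of the canonical start. In knockdown, 1 peak of 1315 bp spanned it. The decamer pair (chr19:48955213-48955232) lay 348 bp after the start, in intron 1, under peaks of all 4 lists.

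MDM2 stood higher among promoters in the control lists than in the knockdown lists, for both marks, as to a lesser degree did BAX and SESN1. The gene (ENSG00000135679.27) lies on chromosome 12 from 68808177 to 68845544, on the plus strand. H3K4me3 folds were 34.0 in control and 16.8 in knockdown, and H3K27ac folds 24.1 and 8.82. Among the 12328 promoters marked by H3K4me3 in both lists, MDM2 stood at percentile 88.2 in control and 16.9 in knockdown. Among the 10009 marked by H3K27ac in both, it stood at 91.9 and 34.9. The extent of the peaks differed little: 2426 and 2622 bp for H3K4me3, and 2227 and 2160 bp for H3K27ac. The same 12 of 17 annotated starts were counted under the peak in all 4 lists. A control H3K27ac peak in intron 7, 17.4 kb after the start (fold 3.54, -log10 q 4.004), overlapped no knockdown peak. The decamer pair (chr12:68808923-68808942) lay 756 bp after the start, in intron 1, just before the internal MDM2 start that p53 is known to use, and under peaks of all 4 lists.

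A percentile lower by at least 50 points in the knockdown list for both marks was found at 9 of the 9804 genes marked in all 4 lists (0.0918%), MDM2 being among them. That limit was set after the MDM2 values were seen, and no replicate stands behind either list. Neighbouring promoters went the same way to differing degrees. SLC35E3, which starts at -62 kb from MDM2, had H3K4me3 percentiles of 93 in control and 77 in knockdown and H3K27ac percentiles of 61.7 and 20.2. RAP1B, at -197 kb, had 70.5 and 43.3, and 87.6 and 47.3. CPM, at 125 kb, had H3K4me3 percentiles of 46.4 and 23.9 and no H3K27ac promoter peak. NUP107, between RAP1B and SLC35E3, had 98.3 and 97.8, and 86.9 and 81.3. The part of DNA copy number or of the background signal at this locus in these values was not tested.

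SESN1, TP53I3 and ZMAT3 act in the metabolic, redox and RNA branches of the response, and all held promoter peaks in all 4 lists. SESN1 encodes sestrin 1, which restrains mTORC1 signalling (ENSG00000080546.14, chromosome 6, 108984309 to 109094846, minus strand). Its promoter had H3K4me3 folds of 41.8 in control and 79.1 in knockdown, at percentiles 95.2 and 93.8. H3K27ac folds were 16.9 and 20.6, at 81.3 and 75. CEP57L1 starts at -661 bp on the opposite strand, under the same peaks, and the H3K4me3 summits lay at -884 and -882 bp, so the marks of the 2 genes cannot be told apart. An internal SESN1 promoter, 85 kb into intron 1 of the canonical transcript, had H3K4me3 folds of 44.6 in control and 33.0 in knockdown. Within their own lists these stood at percentiles 98.4 and 76.2 of all peaks. Short H3K27ac peaks lay there in both lists, with a highest fold of 5.59 and 6.46. The decamer pair with 3 mismatches (chr6:109009018-109009037) lay at this internal promoter, under peaks of all 4 lists. A match of that kind was found in 1.12% of the 35116 promoters of the RefSeq table.

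TP53I3 encodes a quinone oxidoreductase (ENSG00000115129.14, chromosome 2, 24077433 to 24085861, minus strand). Its promoter had H3K4me3 folds of 15.6 in control and 37.9 in knockdown, at percentiles 39.8 and 53. H3K27ac folds were 5.85 and 19.0, at 31.1 and 71.8, so TP53I3 stood higher among H3K27ac promoters in the knockdown list, opposite to MDM2. The H3K4me3 peak at its 3′ end, 8.69 kb after the start, held the starts of SF3B6 and FAM228B and not of TP53I3. No decamer pair with at most 2 mismatches was found within 3 kb of the start.

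ZMAT3 encodes a zinc finger RNA-binding protein (ENSG00000172667.11, chromosome 3, 178960121 to 179072215, minus strand). H3K4me3 folds at its promoter were 31.9 and 44.8, at percentiles 85.4 and 63.8. H3K27ac folds were 7.64 and 13.6, at 45.4 and 56.1. An H3K27ac peak in intron 2, 34.0 kb after the start, had folds of 8.77 in control and 10.05 in knockdown. The knockdown list alone held an H3K4me3 peak there, with a fold of 2.86 and a -log10 q of 2.21. The intronic H3K27ac peak was higher than the promoter peak in control and lower in knockdown.

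GDF15 encodes a secreted stress cytokine (ENSG00000130513.7, chromosome 19, 18374731 to 18389176, plus strand) and had the least marked promoter. Its H3K4me3 peak in the control list was 289 bp long with a fold of 2.81, at percentile 0.810 of marked promoters, and lay in intron 1, 482 bp after the start, over the start of MIR3189. The knockdown list had its nearest H3K4me3 peak 11739 bp from the canonical start, and neither list had H3K27ac at the canonical promoter. Strong H3K27ac lay at the upstream end of the annotated gene, at -11.9 kb from the canonical start, with folds of 17.3 in control and 19.4 in knockdown, at percentiles 91.6 and 88.1 of all peaks. That peak held 2 annotated upstream starts of GDF15. Counted over any annotated start, GDF15 was marked by H3K4me3 and by H3K27ac in both lists of each mark. The decamer pair (chr19:18385308-18385327) lay at -840 bp from the canonical start, 1197 bp from the control H3K4me3 peak.

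Gene-body peaks were common. A peak reaching the body outside the promoter window was present at 9 of 10 genes in each H3K4me3 list (56.9% of all genes in control and 63.1% in knockdown), and at 8 and 9 of 10 for H3K27ac (47.5% and 50.8%). Many were the tails of promoter peaks. Counting only peaks that did not touch the promoter left 4 and 6 genes for H3K4me3 (21.1% and 28.1% of all genes) and 6 in each H3K27ac list (36.6% and 38.9%). Those with a separate H3K27ac peak in both lists were ZMAT3, SESN1, FAS, GDF15 and BBC3. MDM2 had one in control only and CDKN1A in knockdown only. A separate peak can still lie at another start. The separate H3K4me3 peak of TP53I3 held the starts of SF3B6 and FAM228B. Separate peaks of GDF15, BBC3 and SESN1 held other annotated starts of those genes, and that of FAS also lay within ACTA2.

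The starts of 9 of the 10 genes lay in no PML, LMNB1 or H3K9me3 domain, as did 78.5% of all protein-coding genes. FAS was the exception. It started in a PML domain (1 of 10, against 13.1% of all genes) and in LMNB1 domains of both conditions (1 of 10 in each, against 12.4% and 11.0%). No member started in an H3K9me3 domain of either list (10.0% and 8.60% of all genes). Counts of 0 or 1 in 10 are close to those shares. Starting in a PML domain and in both LMNB1 lists was found for 9.22% of all genes, and for 3.39% together with an H3K4me3 promoter peak in both lists, as at FAS. The other nine starts lay between 0.224 and 3.29 Mb from the nearest PML domain, with a median of 1.31 Mb. From LMNB1 they lay 0.0448 to 4.44 Mb away in control and 0.0578 to 4.73 Mb in knockdown. From H3K9me3 all 10 lay 0.717 to 38.2 Mb away in control and 0.355 to 40.8 Mb in knockdown.

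The PML domain of FAS was near the middle of its list by score and length, and the LMNB1 domains were near the low end of theirs by score. The PML domain ran from 88092001 to 89082000 on chromosome 10, and its score of 52 and length of 990 kb stood at percentiles 45 and 47.4 of the 420 PML domains. The LMNB1 domain ran from 88179001 to 89012000 in control and from 88066001 to 89232000 in knockdown, with scores of 23.6 and 20.2, at percentiles 15.1 and 8.42 of their lists. FAS was near an edge of the control LMNB1 domain, its start lying 21.2 kb inside that border. The start lay 91.2 kb inside the PML border and 241 kb inside the knockdown LMNB1 border. The control LMNB1 domain covered 76.8% of the gene and the other two covered all of it. With borders moved inward by 50 kb, FAS was no longer in the control LMNB1 domain but stayed in the PML and knockdown LMNB1 domains. The nearest H3K9me3 domain was 2625.8 kb away in control and 2610.8 kb in knockdown.

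FAS shared that PML domain with 9 other protein-coding genes, most of them unmarked. ACTA2, STAMBPL1, ANKRD22 and LIPM were the nearest, and LIPM belongs with LIPN, LIPK, LIPF and LIPJ to a cluster of acid lipase genes with no promoter peak in any list. H3K4me3 promoter peaks were present in both conditions at 3 of the 10 genes: FAS, RNLS and STAMBPL1, a deubiquitinase gene. STAMBPL1, at -111 kb from FAS, was the most acetylated, with H3K27ac folds of 41.05 in control and 57.9 in knockdown. ANKRD22 held H3K27ac without H3K4me3, with folds of 5.76 and 6.46. Of all 2612 genes that start in PML domains, 42.7% held an H3K4me3 promoter peak in control and 43.5% in knockdown, below the 61.8% and 63.7% of all genes. H3K27ac was present at 35.1% and 35.6%, against 50.8% and 53.7%. H3K27ac in the knockdown list only was found at 1.57% of them.

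ZMAT3 lay across the edge of a lamin domain. Its start was 44.8 kb outside a control LMNB1 domain and 57.8 kb outside the knockdown one, but the domains covered 59.7% and 48.1% of the gene from its 3′ end. The intronic H3K27ac peak described above lay outside both. MDM2 and GADD45A were also within 1 Mb of PML domains, at 471.2 and 563.2 kb, and TP53I3 at 864.8 kb. CDKN1A, BBC3 and SESN1 were more than 2 Mb from any domain in each list.

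**Figure D3:**
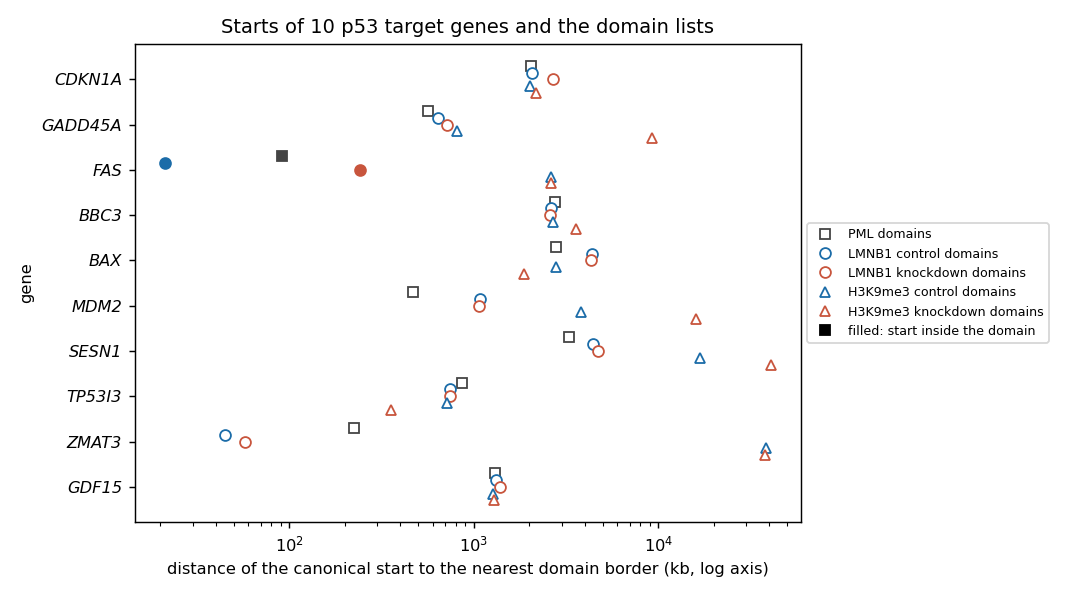
Distance from the canonical start of each gene to the nearest domain border in kb (log axis) for the PML list and for the LMNB1 and H3K9me3 lists of both conditions, filled where the start lies inside the domain. Only FAS has filled symbols, for PML and both LMNB1 lists, and ZMAT3 lies closest outside, 44.81 and 57.81 kb from LMNB1 domains.

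Read over all 9 lists, the 6 genes marked in every peak list and outside every domain shared their pattern with 42.6% of protein-coding genes. CDKN1A and BBC3 shared theirs, H3K27ac in the knockdown list only and no domain, with 2.73%. The FAS pattern was held by 17 genes (0.0851%) and that of GDF15 by 6, each count including the gene itself. Each of these 2 patterns rests on 1 weak peak. For FAS it was the knockdown H3K27ac peak (-log10 q 3.57), and for GDF15 the control H3K4me3 peak (4.67). Neither peak remained at a minimum -log10 q of 5, and the patterns were not counted again at that setting.

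Other genes of the pathway were read in the same way. Of 32 further p53 targets, 30 held an H3K4me3 promoter peak in each list, against 61.8% of all genes in control and 63.7% in knockdown. H3K27ac was present at 28 in each list (50.8% and 53.7% of all genes), and 27 were marked in all 4 lists (49.1%). EDA2R and LIF held none in any list. PHLDA3, a repressor of AKT signalling, was marked by H3K27ac in the knockdown list only (fold 3.78, -log10 q 6.27). PIDD1, a death-domain scaffold, was so in the control list only (fold 2.63, -log10 q 11.1). So 1 of 32 was marked by H3K27ac in the knockdown list only, against 3.24% of all genes. With peaks of -log10 q of at least 5 only, the count was 3 of 32 (PHLDA3, STEAP3 and SUSD6), beside 1 of the 10 genes described first and 3.86% of all genes. CCNG1, which encodes cyclin G1, started in a PML domain, in both LMNB1 lists and in the control H3K9me3 list, yet held strong peaks, with H3K4me3 folds of 49.2 and 81.2. AEN, an apoptotic nuclease gene, CD82, STEAP3 and XPC, which recognises DNA damage, started in H3K9me3 domains of the knockdown list only. So 4 of 32 started in a knockdown H3K9me3 domain, against 8.60% of all genes, and 1 of 32 in a control one, against 10.0%. The share of all genes in the knockdown list only was not computed. The lists differed, with 430 domains in control and 281 in knockdown. With borders 50 kb outward, STEAP3 started in a control H3K9me3 domain too.

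Of 16 regulators of p53, among them MDM4 and the kinases ATM, ATR, CHEK1 and CHEK2, 15 held an H3K4me3 promoter peak in each list (61.8% and 63.7% of all genes). H3K27ac was present at 13 in control and 14 in knockdown (50.8% and 53.7%). CREBBP, a histone and p53 acetyltransferase gene, was the 1 marked by H3K27ac in the knockdown list only (fold 4.14, -log10 q 6.04), a class of 3.24% of all genes. All 16 started outside the domains of every list, as did 78.5% of all genes.

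**Figure D4:**
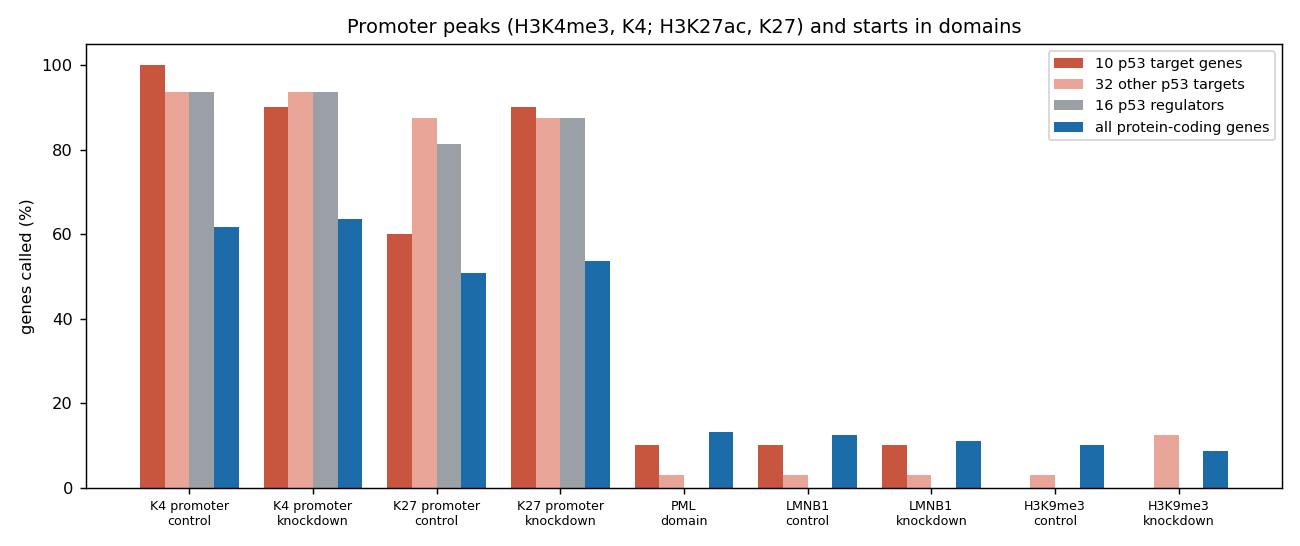
Share of genes (%) with a promoter peak in each peak list and with their start in a domain of each domain list, for the 10 p53 target genes, 32 other p53 targets, 16 regulators and all protein-coding genes. The 10 genes reach 10 and 9 of 10 for H3K4me3, against 61.8% and 63.7% of all genes. For H3K27ac in control they reach 6 of 10, against 50.8% of all genes and 28 of the 32 other targets. A missing bar is a count of 0.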

How the data were processed

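Each deposited peak carries the authors' fold enrichment, a ratio over background, and its -log10 q-value. Peak names in those tables show that the authors called each list from both replicates at once. Each deposited domain carries 1 score with no stated unit; EDD, the caller, is known from the names of the tables, and pooling of replicates for the domains is not stated in any label. The submitters' processing notes name MACS2 2.2.7.1, BWA 0.7.12-r1039, deepTools and Picard 1.104, with no role, and the build hg38. Read depth is unknown, so no counting error could be given.

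Promoters were the Ensembl canonical start in GENCODE release 44 with 1 kb on either side. A condition-only promoter had at least 1 peak in that condition's list and 0 in the counterpart, and its peaks overlapped nothing there by 1 bp or more. Domains were read at the start base. Counts were read beside the same share of 19970 protein-coding genes. Ranks used the highest promoter fold, among promoters marked in both lists of a mark where stated. The H3K27me3 and input samples were not analysed here. The genes and lists were chosen with earlier results of these data known. Named genes were all members, listed pathway genes marked in 1 condition only or starting in a domain, genes starting within 1 kb of a member, and up to 4 nearest genes in its PML domain. Ranks over shared promoters, the 50 kb surroundings, the RefSeq table, separate body peaks, genes around MDM2 and those further along the FAS domain were added after values were seen. Alternatives changed promoter width, -log10 q, sharing, starts, borders and motif limits. Calls were checked on simulated lists and sequences. Python 3.11.15, numpy 2.4.6, pysam 0.24.0, samtools 1.23.1 and matplotlib 3.10.9 were used.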

Additional observations from a re-analysis of the deposited data

How the results depend on the processing

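Of 168 alternative values of counts and shares, 149 stayed within 1.5 times of the reported value and 19 did not. For the 10 genes, a minimum -log10 q of 5 left 1 gene (BBC3) with H3K27ac in the knockdown list only and 0 with H3K4me3 in the control list only. Promoters of 500 bp on either side also left 1 of the former, and use of any annotated start left 0 of the latter. Control H3K4me3 body peaks were found at 5 genes with 2500 bp left out and at 4 when peaks touching the promoter were left out, an alternative chosen after seeing the data. Starts in control LMNB1 domains came to 2 with borders 50 kb outward, 0 with borders 50 kb inward and 2 for any overlap of the body, which also gave 2 in knockdown; the added gene was ZMAT3. For the 32 other targets, 500 bp gave 2 genes with H3K27ac in the control list only and 0 in the knockdown list only, a minimum -log10 q of 5 gave 3 of the latter, and borders 50 kb outward gave 2 for knockdown LMNB1 and 3 for control H3K9me3. A decamer pair within 1 kb was found at 4 of the 10 genes and 1.39% of all genes. All genes reached 25.5% with 3 mismatches and 45.3% with spacers of 0 to 13 bases. Of 100 alternative promoter folds of single genes, 96 were identical; BBC3 in 3 lists and SESN1 in 1 differed when any start was used. No paired analysis was possible because the deposited lists hold no value per replicate, and for the same reason no replicate could be left out.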
